A study of Homo sapiens with 18 samples.

Results

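The long non-coding genes described here carry small RNAs within their transcripts. Genes were taken by name: every gene called SNHG followed by a number, every gene whose name begins with MIR and ends with HG, and GAS5, ZFAS1 and EPB41L4A-AS1. The rule found 62 of the 23622 genes in the count table. Of these, 28 were small nucleolar RNA (snoRNA) hosts, namely the SNHG genes with GAS5, ZFAS1 and EPB41L4A-AS1, and 34 were microRNA hosts. No measured value entered the rule.

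A snoRNA host gene is transcribed as a long precursor, and its snoRNAs are cut from the introns after splicing. The snoRNAs then guide chemical modification or processing of ribosomal and spliceosomal RNA, while the spliced host transcript is often short-lived, because ribosomes engage its short reading frames and nonsense-mediated decay removes it. A microRNA host gene carries one or more microRNA hairpins in an intron or exon. The hairpins are cut out in the nucleus and trimmed in the cytoplasm to a mature microRNA, which pairs with messenger RNAs mainly through its seed, the bases from position 2 to 8. A change in host RNA is therefore a change in a precursor or by-product, not a measurement of the small RNA itself.

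The cells were A2780, a human ovarian carcinoma line sensitive to cisplatin, and its derivative A2780cis, called Acis. Acis was made resistant by long exposure to cisplatin and was given 1 µM cisplatin every 3 passages in culture. Cisplatin crosslinks neighbouring purines in DNA, and such adducts stop RNA polymerase II. RNA was sequenced in 4 groups of 3 libraries each: A2780 control, A2780 after 200 µM cisplatin for 3 h, Acis control, and Acis after the same treatment. Both lines were grown in the same medium, and the resistance model is a single pair of lines, so the derivation of Acis and the resistance of Acis cannot be told apart. Chromatin accessibility was measured by ATAC-seq with 1 peak list for each of the same 4 conditions.

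The 12 RNA libraries held between 4130644 and 5072216 counts in genes. The labels name replicates without saying whether they came from separate cultures. The paper states that cells were seeded in plates with 3 replicates of each condition, and does not say whether these were separate experiments. The p-values therefore measure the spread between these libraries only. Of the 12 pairs of replicates within a group, 6 differed by less than the counting noise of their reads. Repeated reads at the same position had been removed before counting, no 2 libraries were identical, and the replicates were kept as separate samples. Of the 5 epithelial markers checked, EPCAM and KRT8 averaged 3.55 and 15.6 normalized counts in A2780 control and 0.734 and 4.05 in Acis control, KRT18 averaged 25.5 normalized counts in A2780 control and 143 in Acis control, and KRT19 and CDH1 had no row in the table used here. The ovarian carcinoma markers PAX8, WFDC2, MUC16, MSLN and WT1 had no row either, nor had the leukocyte and endothelial markers PTPRC, CD3E, PECAM1 and VWF. In the same order of lines, CD68 averaged 2.28 and 0.709 and FN1 3.21 and 0. The mesenchymal marker VIM averaged 2007 and 1979 normalized counts in the 2 control groups. The collagen gene COL1A1 averaged 844 in A2780 control and 16.4 in Acis control, and COL3A1 averaged 1802 and 3944, while CDH2 averaged 631 and 68.3 and PDGFRB 72.6 and 3.21, so the lines differed in lineage markers beside the genes described here. The part of these differences in the results below was not tested.

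Normalized counts are the deposited counts divided by each library's effective size and scaled to the mean library. Each count of genes below comes from edgeR's quasi-likelihood test over all 15760 genes that passed a filter on low counts, with Benjamini-Hochberg adjusted p-values. Values are means ± SD over 3 libraries, and log2 changes are given ± SE. The filter left 53 of the 62 genes, 27 snoRNA hosts and 26 microRNA hosts. The 9 others held between 12 and 61 counts over all 12 libraries: SNHG31, MIR181A2HG, MIR194-2HG, MIR2052HG, MIR3659HG, MIR378D2HG, MIR4422HG, MIR497HG and MIR548A1HG. Among the 31 genes with a group mean of at least 100 normalized counts, the coefficient of variation within a group had a median of 3.74% and reached 13.2%.

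The mature microRNAs are shown because 3 of the hosts with the largest differences between the lines carry near-identical copies. MIR100HG (GRCh38 chr11:122028325-122556721, minus strand) and MIR99AHG (chr21:15928296-16646364, plus strand) each hold a miR-100 or miR-99 family member, a let-7 member and miR-125b, and MIRLET7BHG (chr22:46053869-46113928, plus strand) holds let-7a and let-7b. Sequences are from RefSeq (GRCh38.p14), 5′ to 3′, with the seed in capitals.
miR-100-5p, MIR100HG, chr11:122152275-122152296: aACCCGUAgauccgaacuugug
miR-99a-5p, MIR99AHG, chr21:16539101-16539122: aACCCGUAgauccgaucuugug
let-7a-5p, MIR100HG, chr11:122146568-122146589: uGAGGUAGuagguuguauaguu
let-7c-5p, MIR99AHG, chr21:16539838-16539859: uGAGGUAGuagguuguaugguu
let-7b-5p, MIRLET7BHG, chr22:46113691-46113712: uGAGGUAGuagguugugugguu
miR-125b-5p, MIR100HG, chr11:122099809-122099830: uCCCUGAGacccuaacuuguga
miR-125b-5p, MIR99AHG, chr21:16590253-16590274: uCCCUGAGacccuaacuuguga

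With positions counted from 1 at the 5′ end, miR-100-5p and miR-99a-5p differed by A16U alone, let-7a-5p and let-7c-5p by A19G, and let-7a-5p and let-7b-5p by A17G and A19G. The differences lie outside the seed, so the members of each pair share it. The let-7 seed GAGGUAG was carried by 5 of the microRNA hosts: MIR100HG, MIR99AHG, MIRLET7BHG, MIRLET7A1HG and MIR4458HG. The hosts MIR9-1HG (chr1:156404250-156456763, minus strand) and MIR9-3HG (chr15:89361579-89424983, plus strand) carried the same mature miR-9-5p, a microRNA of the nervous system. The hosts MIR137HG, MIR17HG, MIR222HG, MIR22HG, MIR7-3HG, MIR34AHG, MIR29B2CHG and MIR3936HG, which also differed between groups, carried other seeds.
miR-9-5p, MIR9-1HG, chr1:156420392-156420414: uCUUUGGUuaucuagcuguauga
miR-9-5p, MIR9-3HG, chr15:89368032-89368054: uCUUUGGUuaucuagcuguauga
miR-137-3p, MIR137HG, chr1:98046091-98046113: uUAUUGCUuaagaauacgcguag
miR-17-5p, MIR17HG, chr13:91350618-91350640: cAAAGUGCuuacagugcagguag
miR-222-3p, MIR222HG, chrX:45747036-45747056: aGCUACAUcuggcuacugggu
miR-22-3p, MIR22HG, chr17:1713914-1713935: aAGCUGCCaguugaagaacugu
miR-7-5p, MIR7-3HG, chr19:4770700-4770723: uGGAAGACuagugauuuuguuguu
miR-34a-5p, MIR34AHG, chr1:9151735-9151756: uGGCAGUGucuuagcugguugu
miR-29b-3p, MIR29B2CHG, chr1:207802450-207802472: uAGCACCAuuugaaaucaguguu
miR-3936, MIR3936HG, chr5:132365513-132365534: uAAGGGGUguauggcagaugca

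Several snoRNA hosts are known to begin transcription at a C followed by a run of pyrimidines, the 5′ terminal oligopyrimidine (TOP) start that they share with ribosomal protein genes. RefSeq promoters, from 250 bases before to 50 after the annotated start, were matched for 54 of the 62 genes. A C followed by at least 4 bases C or T, on the sense strand within 20 bases of the start, was found in 19 of 24 snoRNA host promoters (79.2%), in 15 of 30 microRNA host promoters (50%) and in 51.0% of all 35116 promoters in the table. A run that began exactly at position 1, a search added after the values were seen, was found in 6 of 24 snoRNA hosts (25%), 1 of 30 microRNA hosts (3.33%) and 4.07% of all promoters. The 6 were SNHG4, SNHG5, SNHG12, SNHG19, SNHG32 and ZFAS1. The windows of 4 of these genes, which carry results below, run from 20 bases before to 40 bases from the start, with the run in capitals.
SNHG5, chr6:85678694-85678753, minus strand: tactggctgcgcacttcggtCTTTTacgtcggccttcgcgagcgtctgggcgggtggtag
ZFAS1, chr20:49278622-49278681, plus strand: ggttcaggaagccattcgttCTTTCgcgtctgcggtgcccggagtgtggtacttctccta
SNHG12, chr1:28581834-28581893, minus strand: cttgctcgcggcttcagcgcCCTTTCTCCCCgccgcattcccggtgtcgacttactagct
SNHG4, chr5:139274081-139274140, plus strand: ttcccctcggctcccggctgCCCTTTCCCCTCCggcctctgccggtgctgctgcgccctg

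Of the other letter motifs searched on either strand of the 300-base promoters, CACGTG, the site of MYC-type factors, was in 2 of 24 snoRNA host promoters (SNHG7 and SNHG30, 8.33%) against 7.26% of all promoters. TATAAA was in 4 of 24 (SNHG1, SNHG7, SNHG11 and SNHG19, 16.7%) against 11.5%. TGACTCA and TGACGTCA were in 0 of 24 snoRNA host promoters and in 4.95% and 1.85% of all promoters. Among 30 microRNA host promoters, CACGTG was in MIR3659HG, TGACTCA in MIR4435-2HG and TGACGTCA in MIR9-1HG. These letter matches are descriptions of the windows only.

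In A2780 control cells GAS5, a host named for its rise in growth-arrested cells, had the highest level per length at 185 ± 3.51 normalized counts per kb of exon. SNHG1 followed at 156 ± 2.36, then the microRNA host MIR1915HG at 149.6, SNHG3 at 140.2 ± 8.58 and SNHG16 at 132 ± 2.25. The libraries of MIR1915HG, SNHG3 and SNHG16 overlapped with the neighbour above or below in this order, whereas GAS5 stood clear of SNHG1 and SNHG1 of MIR1915HG. SNHG4 was next at 100.3 ± 1.24 and SNHG19 at 97.1 ± 6.87, which overlapped. GAS5 kept the highest level per length in each of the 4 groups, at 200.4 in treated A2780 and at 224 and 230.4 in Acis before and after treatment. In A2780 cisplatin its libraries overlapped with those of SNHG1. By total counts the largest member was SNHG14, the host of the Prader-Willi region on chromosome 15 with 84 snoRNA genes, whose annotated exons are also the longest of the set.

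Among snoRNA hosts of A2780 cells more were higher than lower after 3 h of cisplatin. Of 27 tested, 18 were higher, 2 were lower and 7 were not called, where 21.2% of all 15760 genes tested were higher and 28.2% lower. By DESeq2, which tested 28, 13 were higher and 2 lower. Their median log2 change was 0.32, beside -0.011 over all genes tested and 0.28 over the 1878 lncRNA genes tested, of which 33.6% were higher. With total counts alone as the scaling, the median of all genes tested moved by 0.115 to 0.10, the share of higher genes among all called went from 42.9% to 63.4%, and that among called members from 65.7% to 71.4%. The summed level of the snoRNA hosts without SNHG14 was 7510, 7577 and 7450 normalized counts in the 3 control libraries and 9354, 9920 and 9648 in the 3 cisplatin libraries. RNA-seq of bulk cells gives relative levels, so more RNA of a host per cell and a larger share of cells with it cannot be told apart. Reads at the same position had been collapsed, which limits counts where reads are dense, and 16 of the 62 genes had more than 0.05 counts per exon base. Among genes at or under that density 12 snoRNA hosts were tested, of which 7 were higher and 1 lower.

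SNHG5, the host of the C/D box snoRNA U50, had 474, 489 and 472 normalized counts in A2780 control and 980.0, 1034 and 1058 after cisplatin. Each treated library was above each control library, with a log2 change of 1.098 ± 0.045, adjusted p = 2.45e-16. SNHG11 rose from 98.0, 102 and 101 to 218, 230.4 and 231, a log2 change of 1.17 ± 0.081, adjusted p = 4.05e-12. These were the snoRNA hosts called with a log2 change of at least 1, a size that 4.14% of all genes tested reached upward. SNHG10, the host of a Cajal body RNA, averaged 115 ± 2.47 in control and 212 ± 3.51 after cisplatin, with no overlap and a log2 change of 0.88 ± 0.089, adjusted p = 5.37e-09.

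ZFAS1, which carries C/D box snoRNAs and is read from the strand opposite to ZNFX1, had 186, 203 and 207 normalized counts in control and 316, 331 and 337 after cisplatin. The libraries did not overlap and the log2 change was 0.73 ± 0.066, adjusted p = 6.73e-10. SNHG12 rose from 266, 254 and 257 to 412, 409 and 402, a log2 change of 0.65 ± 0.054, adjusted p = 1.37e-10. EPB41L4A-AS1, a host that overlaps EPB41L4A on the other strand, rose from 306, 244 and 270.04 to 369, 395 and 408, a log2 change of 0.51 ± 0.066, adjusted p = 3.20e-07. GAS5 moved less, from 909, 929 and 894 to 942, 1045 and 977. Its libraries did not overlap and the log2 change was 0.12 ± 0.045, adjusted p = 0.0317 by edgeR, whereas DESeq2 gave an adjusted p of 0.16.

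Most of the other abundant snoRNA hosts were also higher. SNHG7 changed by 0.70 ± 0.058, adjusted p = 1.10e-10 and SNHG15 by 0.67 ± 0.052, adjusted p = 3.88e-11. SNHG1, which carries 7 annotated snoRNAs, changed by 0.32 ± 0.048, adjusted p = 3.32e-06. SNHG3 changed by 0.28, SNHG8 by 0.30, SNHG32 by 0.34 and SNHG20 by 0.36, all called by edgeR. SNHG16 (0.14) and SNHG17 (0.13) were called at sizes near that of GAS5. DESeq2 did not call SNHG16 (adjusted p = 0.0661), SNHG17 (0.12), SNHG20 (0.0818) or SNHG32 (0.0514). SNHG29 (0.075 ± 0.046, adjusted p = 0.18), SNHG6 (0.17 ± 0.10, adjusted p = 0.24) and SNHG26 (-0.073 ± 0.14, adjusted p = 0.70) reached 100 normalized counts in a group and were not called. Among hosts under 100 normalized counts, SNHG9 and SNHG30 were called higher, and SNHG19, SNHG21, SNHG22 and SNHG25 were not called.

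SNHG14 and SNHG4 fell. SNHG14 had 2598, 2597 and 2558 normalized counts in control and 1611, 1724 and 1688 after cisplatin, without overlap, a log2 change of -0.63 ± 0.035, adjusted p = 9.24e-14. SNHG4 averaged 448 ± 5.53 in control and 312 ± 6.16 after cisplatin, also without overlap, a log2 change of -0.52 ± 0.052, adjusted p = 4.65e-09. SNHG14 overlaps SNRPN on the same strand and SNHG4 overlaps MATR3. Reads in shared exons cannot be told apart and are dropped by the counter, so the counts leave out those parts of the genes. SNHG3 has the same relation to RCC1, SNHG20 to SEC14L1, MIR600HG to STRBP and SNHG5 to a protein-coding gene with no symbol (ENSG00000271793).

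**Figure D1:**
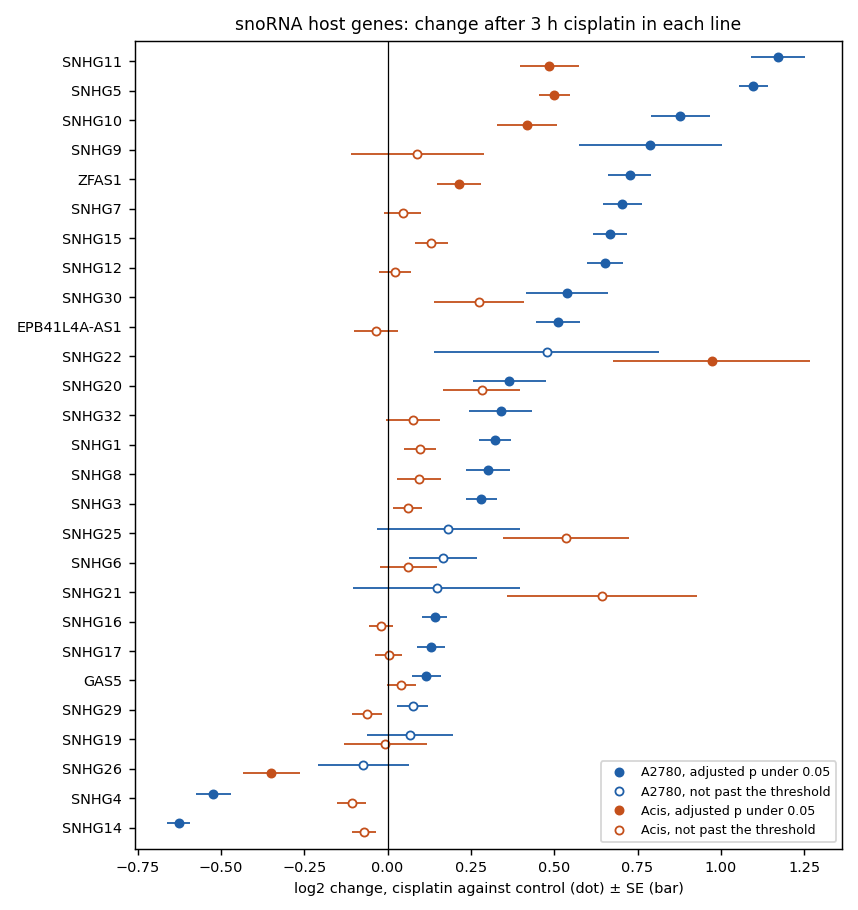
The log2 change after 3 h of cisplatin against control (x axis, dots, with SE as bars) is plotted for the 27 tested snoRNA hosts (y axis) in A2780 (blue) and Acis (orange), and filled dots are past an adjusted p of 0.05. In A2780, 18 filled dots lie to the right of 0, and in Acis 5 do.

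**Figure D2:**
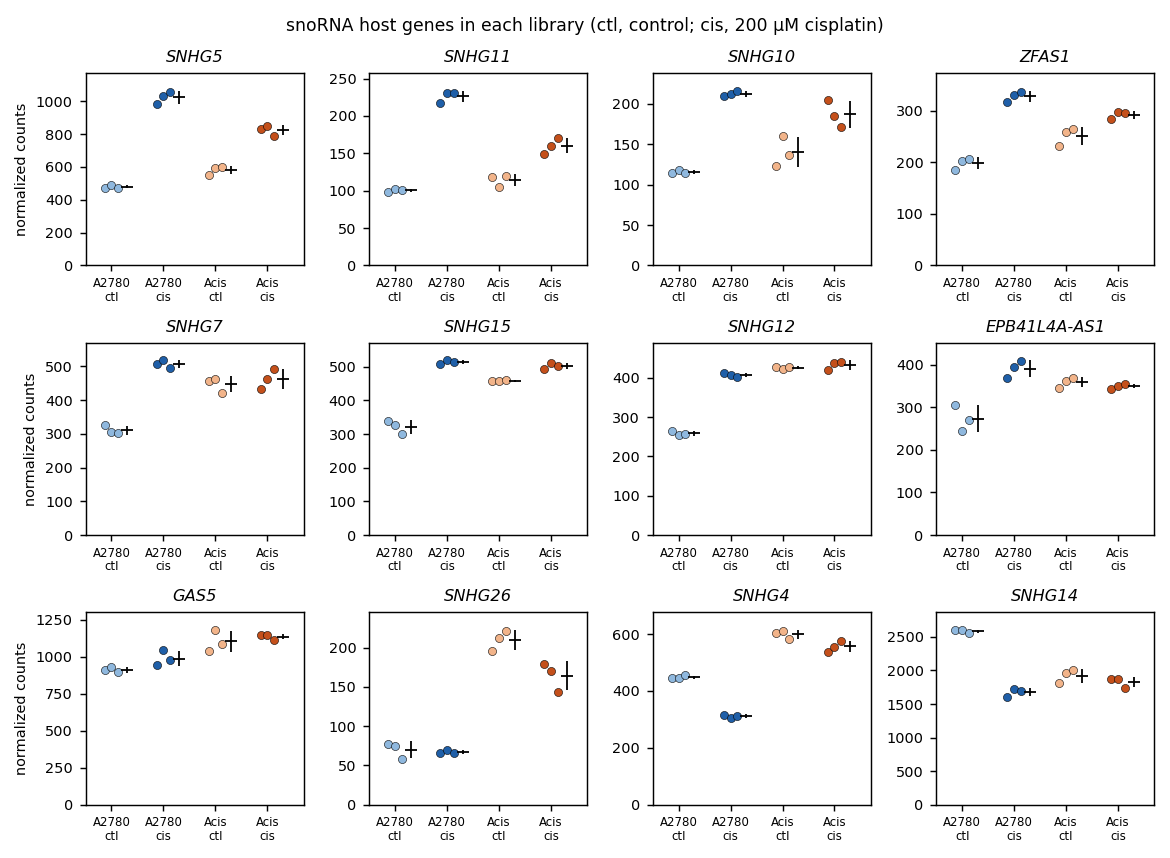
Normalized counts (y axis, from 0) of 12 snoRNA hosts are plotted for each library (dots) of the 4 groups (x axis), with the mean ± SD at the right of each group. SNHG5 rises in both lines after cisplatin, and SNHG14 is lower after cisplatin in A2780 with overlapping groups in Acis.

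Of the 26 microRNA hosts tested in A2780, 5 were higher after cisplatin (19.2%) and 10 lower (38.5%). The shares were 21.2% and 28.2% of all genes tested and 33.6% and 12.5% of the lncRNA genes tested. MIR22HG, host of miR-22, rose from 91.4, 97.1 and 111 normalized counts to 219, 205 and 205, a log2 change of 1.08 ± 0.092, adjusted p = 2.26e-10. MIR222HG, host of miR-221 and miR-222, averaged 30.6 ± 3.17 in control and 62.01 ± 8.61 after cisplatin, a log2 change of 1.02 ± 0.16, adjusted p = 8.59e-06. MIR23AHG, host of the miR-23a, miR-27a and miR-24 cluster, averaged 340.5 ± 21.0 and 470.1 ± 54.0, a log2 change of 0.47 ± 0.071, adjusted p = 4.91e-06. MIR7-3HG and MIR4458HG were the other hosts called higher, and DESeq2 did not call MIR4458HG (adjusted p = 0.16).

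The hosts of the miR-17 cluster and of several let-7 members were among the 10 that were lower. MIR17HG, host of the miR-17 to miR-92a cluster, had 265, 298 and 273 normalized counts in control and 172, 162 and 163 after cisplatin, without overlap, a log2 change of -0.75 ± 0.075, adjusted p = 4.59e-09. MIR99AHG fell from 207, 188 and 201 to 123, 129 and 111, a log2 change of -0.71 ± 0.13, adjusted p = 6.54e-05. MIR100HG fell from 110.1, 100.0 and 98.2 to 72.2, 67.8 and 64.8, a log2 change of -0.59 ± 0.11, adjusted p = 0.000111. The related MIR99AHG and MIR100HG thus both fell, as did the let-7 host MIRLET7BHG, from 18.7, 25.002 and 23.5 to 10.3, 11.6 and 9.82 (-1.07 ± 0.25, adjusted p = 0.00102).

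MIR137HG fell from 488, 499 and 495 normalized counts to 351, 346 and 336, a log2 change of -0.52 ± 0.052, adjusted p = 4.44e-09. MIR29B2CHG, host of miR-29b and miR-29c, averaged 61.8 ± 9.62 in control and 29.4 ± 8.85 after cisplatin, a log2 change of -1.05 ± 0.17, adjusted p = 1.50e-05. MIR29B2CHG and MIRLET7BHG were the members called lower by a log2 change of at least 1, a size that 1.48% of all genes tested reached downward. Their number was 1 without A2780 control replicate 2 or 3 or A2780 cisplatin replicate 2 or 3, and 0 with total counts alone as the scaling. MIR4435-2HG changed by -0.44 ± 0.089, adjusted p = 0.000197, and the abundant MIR1915HG by -0.11 ± 0.044, adjusted p = 0.0459, which turned to 0.0071 (adjusted p = 0.91) with total counts alone as the scaling. The let-7 host MIRLET7A1HG averaged 156 ± 4.67 in control and 149 ± 11.8 after cisplatin and was not called (-0.063 ± 0.084, adjusted p = 0.61). MIR137HG lies on the same strand as DPYD and MIR100HG on that of BLID, where reads in shared exons cannot be told apart and are dropped by the counter.

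The direction in A2780 moved with the length of the gene. Of the 8 tested members over 100 kb, 7 were lower and SNHG16 was higher, with a median log2 change of -0.61. The same length class of all genes was 68.3% lower, with a median of -0.40. Among the 200 tested lncRNAs of that class, 62 were lower (31.0%) and 28 higher in A2780, at a median of -0.20. The members over 100 kb were thus lower more often than lncRNAs of that length, and the cause was not tested. Of the 15 snoRNA hosts under 10 kb, 11 were higher (73.3%) and 0 were lower, at a median of 0.34. All 4886 tested genes under 10 kb were higher in 37.8% of cases at a median of 0.21, and the 1153 lncRNAs under 10 kb in 39.0% at a median of 0.42. The snoRNA hosts had a median length of 6835 bp and the microRNA hosts of 45065.5 bp, beside 24251 bp for all genes tested. In Acis MIR99AHG was the 1 of these 8 called lower (12.5%) and 0 were called higher, at a median of -0.098. In that class 41.3% of all genes tested were lower and 2.14% higher in Acis, at a median of -0.18. Of the 200 lncRNAs over 100 kb, 6.0% were lower and 10.5% higher there, at a median of 0.082. MIR100HG held no count in Acis and MIR137HG 1 count in each Acis group, so neither could have been called there, which limits the comparison of the 8 with these shares.

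**Figure D3:**
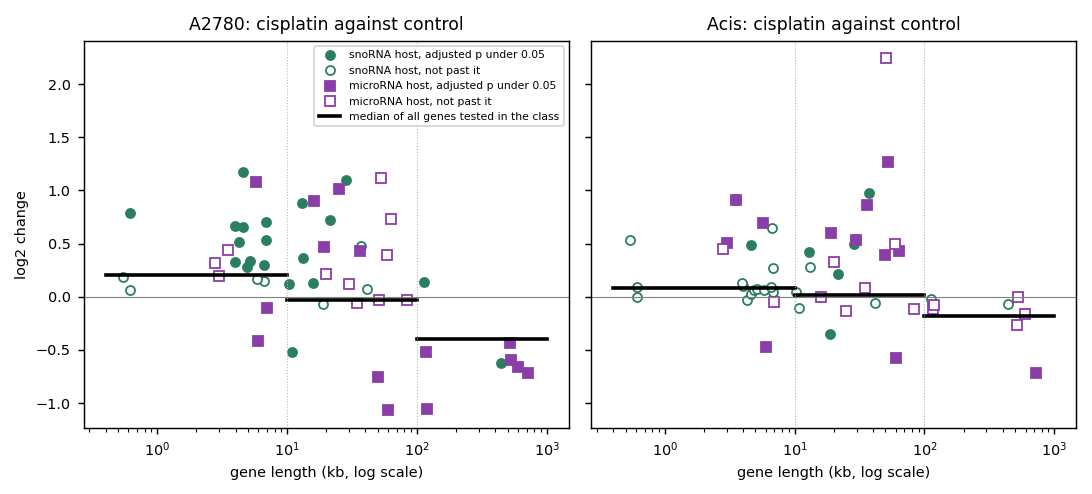
The log2 change after cisplatin (y axis) is plotted against gene length (x axis, kb, log scale) for tested snoRNA hosts (circles) and microRNA hosts (squares) in A2780 (left) and Acis (right), filled where the adjusted p was under 0.05. Black lines give the median of all genes tested in each length class, which in A2780 was 0.21 under 10 kb and -0.40 over 100 kb.

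In Acis most snoRNA hosts were not called after the same treatment. Of 27 tested, 5 were higher (18.5%) and 1 was lower (3.7%), beside 9.35% and 12.4% of all genes tested. These shares were near the 16.1% and 3.78% of the lncRNA genes tested. The median log2 change was 0.077 for the snoRNA hosts, 0.012 for all genes tested and 0.28 for the lncRNA genes. Over both kinds of host, 14 of the 53 members tested were higher. With total counts alone as the scaling, 62.4% in place of 42.9% of all called genes were higher, 9 snoRNA hosts in place of 5, and 19 members in place of 14. The 14 members became 9 without Acis control replicate 2 and 7 by DESeq2, which called 3 snoRNA hosts higher. SNHG5 rose from 553, 595 and 597 normalized counts to 830.2, 848 and 789.8, without overlap (0.50 ± 0.046, adjusted p = 6.09e-09). SNHG11 rose from 118, 105 and 119.7 to 149.7, 160.5 and 169.9 (0.49 ± 0.087, adjusted p = 0.000141), SNHG10 from an average of 139.9 ± 18.5 to 187 ± 16.8 (0.42 ± 0.090, adjusted p = 0.00104). ZFAS1 rose from 231, 259 and 264 to 283, 297 and 295 (0.22 ± 0.066, adjusted p = 0.0186), and the low-count SNHG22 was the remaining host called higher. The ZFAS1 call was lost by DESeq2 (adjusted p = 0.24), without Acis control replicate 1 (0.19 by edgeR) and without Acis cisplatin replicate 2 or 3. DESeq2 did not call SNHG22 either (adjusted p = 0.15). SNHG26 was the snoRNA host called lower, from 195, 213 and 221 to 179, 170.3 and 143 (-0.35 ± 0.087, adjusted p = 0.00385).

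SNHG12 was not called in Acis, with 429, 423 and 427 normalized counts in control and 419, 439 and 441 after cisplatin, and its change was 0.023 ± 0.049, adjusted p = 0.85, with a 95% interval of -0.073 to 0.12. EPB41L4A-AS1 had 346, 361 and 368 and 344, 350.5 and 355, groups that overlapped (-0.035 ± 0.065, adjusted p = 0.78). GAS5 had 1039, 1183 and 1089.6 and 1147, 1146 and 1116, which also overlapped (0.041 ± 0.043, adjusted p = 0.57). SNHG14 had 1807, 1961 and 2004 and 1869.7, 1878 and 1744, with overlap (-0.071 ± 0.037, adjusted p = 0.19).

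Among microRNA hosts of Acis, 9 of 26 were higher (34.6%) and 3 lower (11.5%). The shares were 9.35% and 12.4% of all genes tested and 16.1% and 3.78% of the lncRNA genes tested. The 26 include MIR100HG and MIR7-3HG, with no count in Acis. MIR137HG held 1 count and MIR222HG 2 counts in each Acis group. These hosts passed the filter through A2780 and held too few counts in Acis to be called. MIR9-1HG was the member called with a log2 change of at least 1, a size that 1.64% of all genes tested reached upward and 0.374% downward. Their number was 3 without Acis cisplatin replicate 1, and 2 without Acis control replicate 1 or 3 or Acis cisplatin replicate 2 or 3. MIR9-1HG averaged 20.2 ± 5.72 normalized counts in control and 49.0 ± 7.19 after cisplatin (1.27 ± 0.19, adjusted p = 1.80e-05). MIR9-3HG, which carries the same miR-9-5p, averaged 58.7 ± 7.49 and 79.0 ± 8.10 (0.43 ± 0.13, adjusted p = 0.0191). MIR22HG rose from 88.1, 86.3 and 85.5 to 143, 120.1 and 156 (0.69 ± 0.11, adjusted p = 2.35e-05). MIR23AHG averaged 222 ± 12.6 and 336 ± 29.6 (0.60 ± 0.088, adjusted p = 1.04e-05), and MIR193BHG, MIR4453HG, MIR4458HG and MIR503HG were also called higher. DESeq2 did not call MIR9-3HG (adjusted p = 0.31), MIR193BHG, MIR4453HG or MIR503HG, and the MIR9-3HG call was also lost without Acis control replicate 2 or 3 or Acis cisplatin replicate 1 or 3.

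MIR17HG, which fell in A2780, was called higher in Acis, from 66.9, 66.0 and 80.9 normalized counts to 96.0, 104 and 80.5 (0.40 ± 0.13, adjusted p = 0.0220). Those groups overlapped, and DESeq2 gave an adjusted p of 0.12. MIR99AHG fell in Acis from 794, 923 and 1014 to 586, 589.7 and 484 (-0.71 ± 0.068, adjusted p = 1.01e-08), and MIRLET7BHG from 299, 276 and 268 to 193, 182 and 192 (-0.57 ± 0.068, adjusted p = 3.35e-07). MIR600HG was the other host called lower, and DESeq2 did not call it (adjusted p = 0.14). MIR34AHG held 2 counts in Acis control and 12 after cisplatin, a ratio of 5.38 with a 95% counting interval of 1.20 to 49.5, and it was not called by edgeR (2.24 ± 0.85, adjusted p = 0.0594). The abundant MIR1915HG (-0.048 ± 0.044, adjusted p = 0.54), MIR4435-2HG (-0.27 ± 0.10, adjusted p = 0.0810) and MIRLET7A1HG (0.082 ± 0.081, adjusted p = 0.59) were not called.

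The difference between the lines in their response was tested as an interaction, the log2 change in Acis minus that in A2780. Of the 53 genes tested, 11 were more negative in Acis and 4 more positive, beside 5.48% and 13.4% of all genes tested. With total counts alone as the scaling, the share of more positive genes among all called went from 71.0% to 48.2%, and the members were 15 and 4. The genes counted as tested include MIR100HG and MIR7-3HG, with no count in Acis, and MIR137HG, with 1 count in each Acis group, which passed the filter through A2780 and could not have been called. The 11 were all snoRNA hosts, or 40.7% of the 27 tested. In the 15 snoRNA hosts under 10 kb 7 were more negative (46.7%), beside 10.2% of all genes of that length. SNHG5 had the smallest adjusted p among them (-0.60 ± 0.065, adjusted p = 6.42e-07), with a rise of 1.098 in A2780 and 0.50 in Acis. SNHG12 (-0.63 ± 0.073, adjusted p = 1.16e-06), SNHG7 (-0.66 ± 0.080, adjusted p = 2.27e-06) and SNHG15 (-0.54 ± 0.072, adjusted p = 7.29e-06) were called higher in A2780 and not called in Acis. GAS5 had an interaction of -0.075 ± 0.062, adjusted p = 0.45, with a 95% interval of -0.20 to 0.046. By DESeq2 7 members were more negative, without SNHG10, SNHG3, SNHG1 and SNHG16.

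The interactions in the other direction belonged to hosts that had fallen in A2780. SNHG14 had the smallest adjusted p of all members (0.56 ± 0.051, adjusted p = 5.09e-08), falling by 0.63 on the log2 scale in A2780 and changing by -0.071 in Acis. SNHG4 followed the same pattern (0.41 ± 0.069, adjusted p = 0.000103), as did MIR29B2CHG (0.97 ± 0.22, adjusted p = 0.00230). MIR17HG differed most in size (1.15 ± 0.15, adjusted p = 3.85e-06), with -0.75 in A2780 and 0.40 in Acis.

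Before treatment, the snoRNA hosts were higher in the resistant line. Of 27 tested, 19 were higher in Acis control than in A2780 control and 1 was lower, beside 28.2% and 30.6% of all genes tested. The median log2 difference was 0.28 for the snoRNA hosts, -0.010 for all genes tested and -0.32 for the lncRNA genes tested, of which 13.5% were higher. The summed level of the snoRNA hosts without SNHG14 was 9376, 9779 and 9478 normalized counts in the Acis control libraries. That range lay above the A2780 control range given above and overlapped with that of A2780 after cisplatin. The comparison of controls and the cisplatin comparison in A2780 share the A2780 control libraries, so their directions are not independent of each other.

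SNHG26, host of SNORD93, differed most among the snoRNA hosts. It had 77.4, 75.01 and 57.6 normalized counts in A2780 control and 195, 213 and 221 in Acis control (1.57 ± 0.11, adjusted p = 4.97e-13). SNHG12 was higher in Acis by 0.72 ± 0.055, adjusted p = 6.37e-12, from the libraries given above, and SNHG32 by 0.65 ± 0.093, adjusted p = 7.89e-07. SNHG6 averaged 93.8 ± 2.37 and 144 ± 9.32 (0.61 ± 0.097, adjusted p = 3.96e-06). SNHG7 (0.53), SNHG15 (0.50), SNHG4 (0.42), SNHG3 (0.42) and EPB41L4A-AS1 (0.39) were each higher without overlap. GAS5 was higher by 0.28 ± 0.045, adjusted p = 5.27e-06, ZFAS1 by 0.34 ± 0.072, adjusted p = 0.000179 and SNHG5 by 0.28 ± 0.052, adjusted p = 3.14e-05.

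Smaller differences were called by edgeR for SNHG16 (0.29), SNHG10 (0.28), SNHG29 (0.26), SNHG1 (0.20), SNHG8 (0.19) and SNHG17 (0.17). SNHG10 was not called by DESeq2 (adjusted p = 0.10) or without Acis control replicate 2 (0.28 by edgeR). The same held for SNHG8 (adjusted p = 0.11 by DESeq2 and 0.23 by edgeR without that library). The low-count SNHG9 was higher as well by edgeR, and DESeq2 did not call it (adjusted p = 0.10). SNHG14 was the snoRNA host that was lower in Acis (-0.43 ± 0.035, adjusted p = 3.26e-11). SNHG11 averaged 100.4 ± 2.16 in A2780 and 114 ± 7.74 in Acis and was not called (0.19 ± 0.098, adjusted p = 0.16), and SNHG20 was not called either (-0.057 ± 0.12, adjusted p = 0.73).

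The microRNA hosts held the largest differences between the lines. Of 26 tested, 5 were higher (19.2%) and 12 lower (46.2%) in Acis. The shares were 28.2% and 30.6% of all genes tested and 13.5% and 34.6% of the lncRNA genes tested. By a log2 difference of at least 1, 4 microRNA hosts were higher and 7 lower, with SNHG26 as the 1 snoRNA host of that size. All genes tested reached that size upward in 6.99% and downward in 12.2%, and of the 1878 lncRNA genes tested 145 did so upward and 418 downward. Of the 7, MIR100HG, MIR7-3HG, MIR137HG, MIR222HG and MIR34AHG held 0 to 2 counts in Acis control and passed the filter through A2780. With at least 50 counts per library on average, 3 members were higher and 2 lower past both thresholds. MIR100HG had 110.1, 100.0 and 98.2 normalized counts in A2780 control and 0 in each of the 6 Acis libraries. Against a floor of 3 counts over the group its level there was lower by at least 94.5-fold (adjusted p = 1.24e-15). MIR99AHG, its relative on chromosome 21, went the other way, from 207, 188 and 201 in A2780 control to 794, 923 and 1014 in Acis control (2.19 ± 0.085, adjusted p = 1.83e-18). MIRLET7BHG rose from 18.7, 25.002 and 23.5 to 299, 276 and 268 (3.65 ± 0.11, adjusted p = 8.42e-21). The hosts that carry miR-125b and the shared miR-100 and miR-99 seed were thus opposite in the lines, and mature microRNAs were not measured. MIRLET7A1HG averaged 156 ± 4.67 and 169 ± 12.7 and was not called (0.12 ± 0.084, adjusted p = 0.29).

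MIR137HG, host of a microRNA of neural development, had 488, 499 and 495 normalized counts in A2780 control, and 1 read in all 3 Acis control libraries together. The ratio was 1363-fold, with a 95% counting interval of 244 to 53866, which covers counting error only. MIR7-3HG averaged 21.5 ± 2.54 in A2780 control and held no count in Acis, at least 19.8-fold lower. MIR222HG held 93 counts in A2780 control and 2 in Acis control, a ratio of 42.1 with an interval of 11.3 to 353. MIR34AHG, host of the p53-induced miR-34a, held 30 and 2 counts, a ratio of 13.6 with an interval of 3.44 to 117. MIR17HG, well above the floor in both lines, had 265, 298 and 273 in A2780 control and 66.9, 66.0 and 80.9 in Acis control (-1.97 ± 0.096, adjusted p = 3.25e-16). MIR3936HG averaged 8.52 ± 0.818 in A2780 control and 1.85 ± 1.73 in Acis control (-2.16 ± 0.57, adjusted p = 0.00187). Both MIR100HG and MIR7-3HG stayed at 0 after cisplatin in Acis.

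The miR-9 hosts were higher in Acis. MIR9-3HG averaged 4.64 ± 1.60 normalized counts in A2780 control and 58.7 ± 7.49 in Acis control (3.64 ± 0.26, adjusted p = 1.26e-12), and MIR9-1HG averaged 2.33 ± 0.755 and 20.2 ± 5.72 (3.08 ± 0.40, adjusted p = 2.07e-07). MIR29B2CHG was higher by 0.50 ± 0.14, adjusted p = 0.00260. The log2 difference was -0.62 ± 0.088, adjusted p = 7.18e-07, for MIR23AHG and -0.41 ± 0.091, adjusted p = 0.000384, for MIR4435-2HG. MIR193BHG, MIR4458HG and MIR924HG were the other hosts called lower, and DESeq2 did not call MIR4458HG (adjusted p = 0.0705). MIR22HG (-0.20 ± 0.12, adjusted p = 0.17) and MIR1915HG (0.067 ± 0.044, adjusted p = 0.23) were not called.

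**Figure D4:**
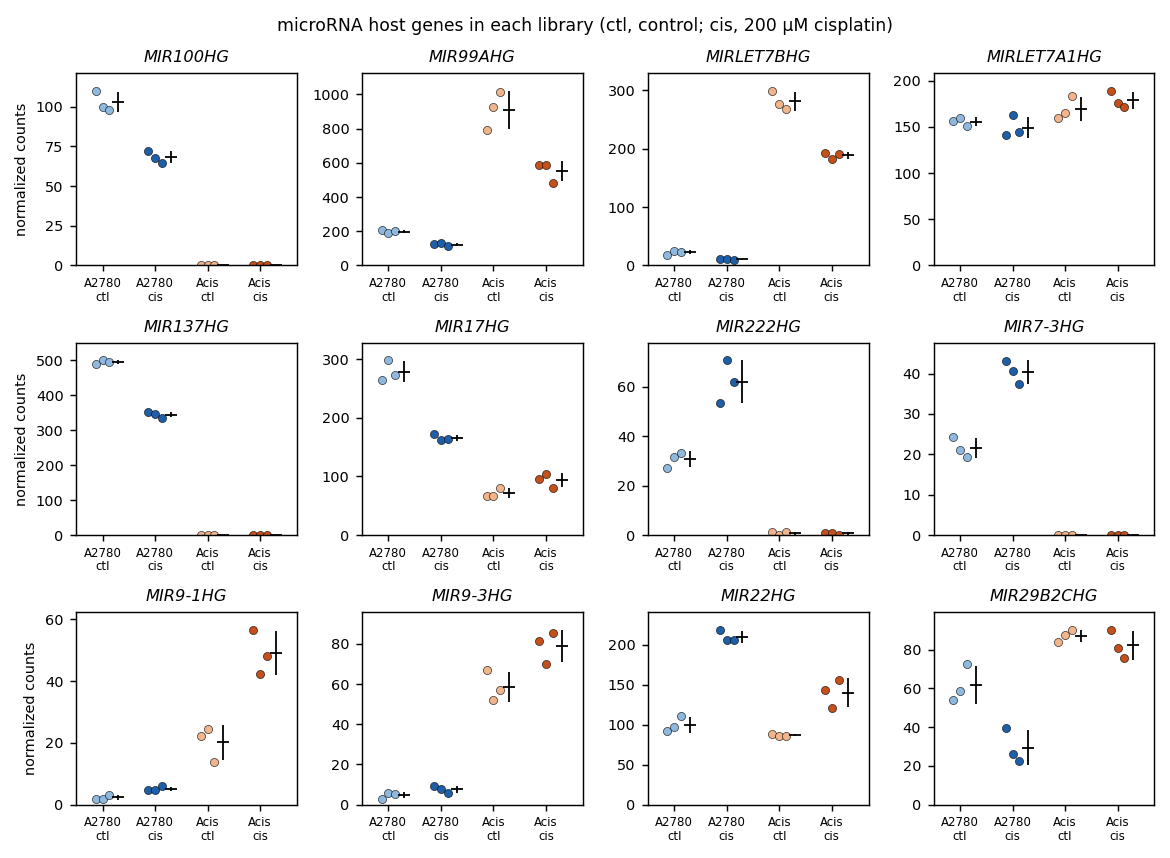
Normalized counts (y axis, from 0) of 12 microRNA hosts are plotted for each library (dots) of the 4 groups (x axis), with the mean ± SD at the right of each group. MIR100HG and MIR7-3HG are at 0 in the 6 Acis libraries, and MIR99AHG, MIRLET7BHG, MIR9-1HG and MIR9-3HG are higher in the Acis libraries than in A2780 libraries.

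Between the treated lines 11 of 27 snoRNA hosts were higher in Acis (40.7%) and 7 lower (25.9%), shares near the 31.8% and 31.2% of all genes tested, at a median log2 difference of 0.040. By DESeq2 7 were higher and 2 lower. SNHG26 (1.29 ± 0.11, adjusted p = 6.96e-11) and SNHG4 (0.83 ± 0.050, adjusted p = 3.27e-14) were higher in treated Acis. SNHG14, lower in Acis before treatment, differed by 0.13 ± 0.037, adjusted p = 0.00354, after it, a call lost with total counts alone (0.074, adjusted p = 0.0858) and with at least 50 counts per library (0.080, adjusted p = 0.0625). SNHG11 (-0.50 ± 0.072, adjusted p = 8.41e-07) and SNHG5 (-0.32 ± 0.040, adjusted p = 1.17e-07) were lower in treated Acis, and so were SNHG7, SNHG10, SNHG30, ZFAS1 and EPB41L4A-AS1 by between -0.34 and -0.13, although DESeq2 called none of these 5, with adjusted p between 0.11 and 0.20. Of the microRNA hosts, 7 were higher and 9 lower, and MIR29B2CHG differed by more than before treatment (1.48 ± 0.16, adjusted p = 8.60e-09). By a log2 difference of at least 1, 6 members were higher and 6 lower, beside 7.28% and 11.9% of all genes tested. MIRLET7BHG (4.14), MIR9-3HG (3.34), MIR9-1HG (3.23), MIR99AHG (2.19), MIR29B2CHG and SNHG26 were higher, and MIR100HG, MIR137HG, MIR7-3HG, MIR222HG, MIR34AHG and MIR3936HG were lower. Of the lower hosts, MIR100HG, MIR7-3HG, MIR137HG and MIR222HG held 0 to 2 counts in treated Acis and passed the filter through A2780. The MIR34AHG call was lost by DESeq2 (adjusted p = 0.11) and by edgeR without A2780 cisplatin replicate 3 or Acis cisplatin replicate 1 or 3.

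Few of the small RNAs themselves had a row in the count table, and their mature forms were not measured. GENCODE release 44 places 136 snoRNAs within 23 of the snoRNA hosts, 84 of them in SNHG14, and 58 microRNAs within the 34 microRNA hosts. Of these hosted genes 18 had a row in the count table and 9 were tested. Reads of a small RNA row cannot be told apart from reads of the unspliced host precursor. In A2780 cisplatin against control 2 of the 9 were higher and 0 lower, where 21.2% of all genes tested were higher and 28.2% lower. The 2 were SNORA71B within SNHG17 (log2 change 0.88, adjusted p = 0.000601) and SNORD99 within SNHG12 (0.98, adjusted p = 0.00974). Their hosts changed by 0.13 and 0.65. In Acis the smallest adjusted p of the 9 was 0.0701, for MIR762 within MIR762HG. Between control lines 7 were higher in Acis and 0 lower, beside 28.2% and 30.6% of all genes tested. The largest of these rows, SNORA73B within SNHG3, averaged 112 ± 8.73 in A2780 control and 149.9 ± 7.48 in Acis control, a log2 difference of 0.42 (adjusted p = 0.000289) beside 0.42 for its host.

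The proteins that bind box C/D and H/ACA snoRNAs were described from a list of 8 core genes. For the lists that follow, 21.2% of all genes tested were higher and 28.2% lower after cisplatin in A2780, 9.35% and 12.4% in Acis, and 28.2% and 30.6% in Acis control against A2780 control. In A2780, 5 of the 8 rose after cisplatin and 0 fell, at a median log2 change of 0.12. NOP56, a C/D core protein and itself a snoRNA host, changed by 0.30 ± 0.038 (adjusted p = 2.21e-07), and NHP2, an H/ACA protein, by 0.29 ± 0.058 (adjusted p = 0.000167). In Acis 1 rose, GAR1 (0.24 ± 0.068, adjusted p = 0.0110). Between control lines 5 were higher in Acis and 0 lower, led by NOP56 (0.47 ± 0.038, adjusted p = 2.34e-11) and DKC1, the pseudouridine synthase (0.26 ± 0.039, adjusted p = 1.68e-06). Of 11 tested assembly factors, 3 rose and 3 fell in A2780, and NUFIP1, an adaptor in that assembly, was lower in Acis control by a log2 difference of -1.01 ± 0.10 (adjusted p = 1.96e-09).

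Protein-coding hosts of snoRNAs outside the ribosomal proteins were a further comparison. Of 19, 8 rose and 4 fell in A2780 after cisplatin, 0 rose and 7 fell in Acis, and 13 were higher and 3 lower in Acis control than in A2780 control. EIF4A1, a translation helicase, rose in A2780 by 1.02 ± 0.096 (adjusted p = 1.40e-09) and had an interaction of -0.77 ± 0.14 (adjusted p = 0.000278). The 14 factors of nonsense-mediated decay, which removes many spliced host RNAs, split into 5 higher and 5 lower in A2780. Its kinase SMG1 fell by 0.51 ± 0.034 on the log2 scale (adjusted p = 2.32e-12). In Acis 2 of the 14 rose and 4 fell, and between control lines 1 was higher and 4 lower in Acis.

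Of 13 genes that process microRNAs, 1 rose and 10 fell in A2780 after cisplatin, at a median of -0.43, and 0 rose and 6 fell in Acis, at a median of -0.071. TNRC6B, a scaffold of the silencing complex, changed by -0.74 ± 0.036 in A2780 (adjusted p = 6.67e-15) and -0.31 ± 0.042 in Acis (adjusted p = 3.18e-06). AGO2, the slicing Argonaute, changed by -0.66 ± 0.036 (adjusted p = 4.37e-14) and -0.33 ± 0.029 (adjusted p = 3.23e-09), and it was higher in Acis control than in A2780 control by 0.78 ± 0.031 (adjusted p = 2.96e-18). By the interaction 8 of the 13 were more positive in Acis and 1 more negative, beside 13.4% and 5.48% of all genes tested, with AGO3 first (0.75 ± 0.070, adjusted p = 5.83e-08).

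Of 12 p53 targets, 8 rose and 2 fell in A2780 and 10 rose and 0 fell in Acis, while 8 were lower and 1 higher in Acis control than in A2780 control. CDKN1A, the cell cycle inhibitor p21, changed by 0.85 ± 0.043 in A2780 (adjusted p = 1.27e-14) and 0.82 ± 0.078 in Acis (adjusted p = 9.56e-09). Of 11 immediate-early factors, 10 rose and 0 fell in A2780 and 8 rose and 0 fell in Acis, and 10 were more negative in Acis by the interaction. FOS changed by 3.49 ± 0.062 in A2780 (adjusted p = 1.65e-24) and 1.87 ± 0.084 in Acis (adjusted p = 2.92e-14).

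Open chromatin lay at the start of nearly every snoRNA host. A listed ATAC-seq peak within 1000 bases of the annotated gene start was found for 26 of 28 snoRNA hosts in each of the 4 lists, all but SNHG14 and SNHG20. Of the 34 microRNA hosts it was found for 15 and 16 in the A2780 lists before and after cisplatin, and for 12 and 13 in the Acis lists. Of the genes tested for RNA, 69.3%, 70.4%, 63.0% and 67.0% had such a peak in the same order. The median fold enrichment of the peaks at snoRNA hosts was 14.8, 12.9, 16.7 and 17.1 against 9.96, 8.79, 12.8 and 11 for all peaks of each list. At microRNA hosts it was 10.4, 8.3, 10.6 and 11.2. The medians of all peaks include peaks away from gene starts, and peaks at the starts of the other genes tested were not compared. Control lists were made by the authors from 3 replicates and cisplatin lists from 2, with 1 list per condition, so differences between lists have no replicate check.

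At SNHG5 the fold enrichment was 13.99 in A2780 control and 11.5 after cisplatin, and 17.8 and 16.4 in Acis. The lowest value was in A2780 cisplatin, the list whose median over all its peaks was also the lowest of the 4, at 8.79. SNHG10 had the highest values among members in all 4 lists, from 21.9 to 28.2. At MIR137HG a peak of 3.61 was listed in A2780 control alone, and at MIR17HG peaks of 8.27 and 8.29 were listed in the 2 A2780 lists. The nearest Acis peaks to the MIR17HG start lay 1356 bases away in control and 1421 after cisplatin, just past the window of 1000 bases, and those to MIR137HG 4025 and 4154 bases away. At MIR222HG a peak was listed in A2780 cisplatin alone (9.82). The miR-9 hosts, higher in Acis RNA, had a listed peak in all 4 lists, at 13.4 and 13.5 for MIR9-1HG and 8.04 and 8.75 for MIR9-3HG in the control lists of A2780 and Acis. MIR7-3HG had no listed peak in A2780 control and had one in A2780 cisplatin (6.70) and in both Acis lists, although it held no count in Acis RNA. MIR100HG, MIR99AHG and MIRLET7BHG were among the 18 members with no listed peak at the annotated start in any list, and 35 members had one in all 4. Only the outer end of the annotated gene was taken as its start, so a peak at another start was not counted. Other settings gave 36 to 48 members with a peak in A2780 control and 32 to 46 in Acis control.

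**Figure D5:**
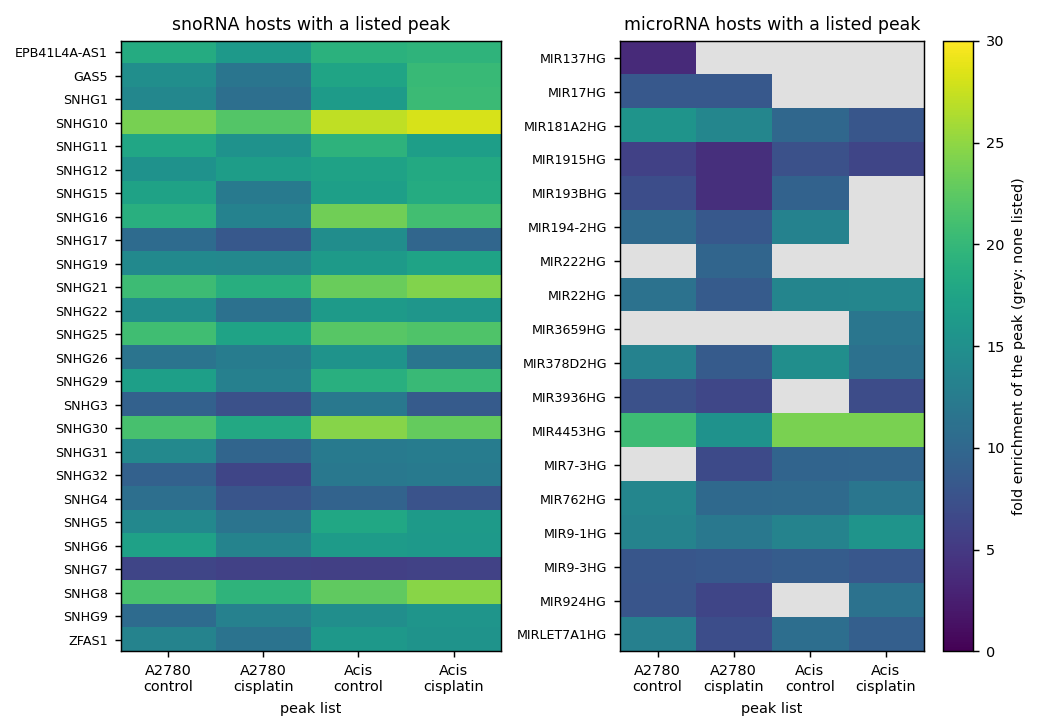
The fold enrichment of the ATAC-seq peak within 1000 bases of the gene start (colour) is shown for each member with a listed peak (rows) in the 4 peak lists (columns), and grey marks no listed peak. The 26 snoRNA hosts have a peak in every list, and MIR17HG has none within this window in Acis, where its nearest peaks lie 1356 and 1421 bases away.

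The 9 genes under the filter showed few reads in any group. MIR4422HG was at 0 in the 6 control libraries and at 12.2, 3.87 and 5.89 normalized counts in A2780 cisplatin and 1.92, 0.985 and 0.982 in Acis cisplatin. MIR2052HG was at 11.2, 11.5 and 4.27 in A2780 control and at 0 in the 3 Acis control libraries, and MIR548A1HG was at 0 in the 6 Acis libraries. The remaining 6 stayed below 10 normalized counts in every library.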

How the data were processed

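RNA-seq was made in 12 libraries, 3 in each of 4 groups, and ATAC-seq in 4 conditions. The deposited RNA values are raw counts per gene, made by the authors from rRNA-depleted, stranded, single-end reads with STAR 2.7.3, Picard duplicate removal and HTSeq 0.11.1 on the reverse strand (hg38). The deposited peak lists give a fold enrichment and a −log10 p and q value per peak, made by the authors with Bowtie2 2.4.1 and MACS2, with 1 list per condition of peaks shared by its replicates. Their score column, a whole-number form of −log10 q deposited beside these, was not used. XR-seq was not analysed here.

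Counts were tested with edgeR 4.0.16 in R 4.3.3 (TMM, filterByExpr, quasi-likelihood, 12 libraries in 1 fit with 8 residual degrees of freedom), with Benjamini-Hochberg adjustment over 15760 genes. A gene was called at an adjusted p under 0.05, and past both thresholds with a log2 change of at least 1 as well. Rows without a gene name (4988 of the table) were kept under their identifiers. Totals were 4130644 to 5072216 counts, TMM factors 0.965 to 1.05 and the common dispersion 0.000304. Replicate pairs varied by 0.731 to 1.53 times their counting noise. Ratios with 1 to 3 counts in a group carry exact 95% intervals, and a group at 0 was set to a floor of 3 counts over the group, both for counting error only.

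Members and gene lists were chosen with earlier results of these data known. Named were members with at least 100 normalized counts in a group, those past both thresholds, those called in the interaction, and at most 3 genes of each other list by smallest adjusted p. Peaks were taken within 1000 bases of GENCODE release 44 gene starts. Alternatives were DESeq2 1.42.0, RLE and total-count scaling, other filters, 2 groups alone, a replicate block, merged replicates and each library left out. The limit of 0.05 counts per exon base, any transcript start for peaks and the run at position 1 were added after the data were seen, and promoters are printed as 60-base windows. Scripts were tested on simulated data.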

Additional observations from a re-analysis of the deposited data

Results flagged for a closer look

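The response to cisplatin differed between the lines for 15 of the 53 genes tested, by the interaction term of edgeR's quasi-likelihood fit with Benjamini-Hochberg adjustment over 15760 genes. Values are the log2 change in Acis minus that in A2780, ± SE. The 11 genes with the more negative value in Acis were SNHG5 (-0.60 ± 0.065, adjusted p = 6.42e-07), SNHG12 (-0.63 ± 0.073, adjusted p = 1.16e-06), SNHG7 (-0.66 ± 0.080, adjusted p = 2.27e-06), SNHG15 (-0.54 ± 0.072, adjusted p = 7.29e-06), EPB41L4A-AS1 (-0.55 ± 0.093, adjusted p = 0.000136), SNHG11 (-0.69 ± 0.12, adjusted p = 0.000223), ZFAS1 (-0.51 ± 0.093, adjusted p = 0.000303), SNHG10 (-0.46 ± 0.13, adjusted p = 0.0121), SNHG3 (-0.22 ± 0.065, adjusted p = 0.0162), SNHG1 (-0.23 ± 0.068, adjusted p = 0.0206) and SNHG16 (-0.16 ± 0.053, adjusted p = 0.0301). The 4 with the more positive value were SNHG14 (0.56 ± 0.051, adjusted p = 5.09e-08), MIR17HG (1.15 ± 0.15, adjusted p = 3.85e-06), SNHG4 (0.41 ± 0.069, adjusted p = 0.000103) and MIR29B2CHG (0.97 ± 0.22, adjusted p = 0.00230). DESeq2 did not call SNHG10, SNHG3, SNHG1 or SNHG16 (adjusted p between 0.0666 and 0.13), and SNHG16 was also lost in 9 of the 12 fits that left out 1 library. SNHG5, SNHG10 and SNHG11 were called higher in both lines, as was ZFAS1 by edgeR but not in Acis by DESeq2 (adjusted p = 0.24), and MIR17HG was called lower in A2780 and higher in Acis.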

How the results depend on the processing

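The 139 called results on single genes gave 2826 values under the alternatives, of which 2656 kept direction and call, 169 kept direction without the call and 1 reversed, MIR1915HG in A2780 (0.0071 with total counts alone, adjusted p = 0.91 by edgeR). DESeq2 lost 36 of the calls, and merging the closest pair of replicates in each group lost 11. Of the counts, A2780 cisplatin against control had 0 members lower past both thresholds with total counts alone and 1 with at least 50 counts per library on average. The alternative that kept genes below a density of 0.05 counts for each base of exon, chosen after the data were seen, tests 37 of the members. There it gave 12 higher and 2 higher past both thresholds in that comparison, 14 higher between control lines, 10 higher and 10 lower between cisplatin lines, and 3 more negative by the interaction. In Acis DESeq2 called 7 higher, and 3 were higher past both thresholds with total counts alone and 0 with at least 50 counts. With at least 50 counts, control lines had 7 lower, 3 higher past both thresholds and 2 lower past both, and cisplatin lines 10 higher and 1 lower past both. With no filter cisplatin lines had 10 lower past both, and DESeq2 called 7 more negative by the interaction. The cause of these moves was not tested, beyond the number of genes that each filter leaves.

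Leaving out 1 library at a time gave 1 to 2 members lower past both thresholds in A2780 (1 without A2780 control replicate 2 or 3 or A2780 cisplatin replicate 2 or 3), 9 to 14 higher in Acis (9 without Acis control replicate 2) and 1 to 3 higher past both there (3 without Acis cisplatin replicate 1, and 2 without Acis control replicate 1 or 3 or Acis cisplatin replicate 2 or 3). Libraries of the same replicate number correlated between -0.205 and 0.282 in their deviations over 18 pairs, so the numbers do not pair the samples. With the replicate number as a block 23 members were higher and 12 lower in A2780, and 14 and 4 in Acis, and 0 of the 139 calls were lost. The other ATAC-seq settings gave 36 to 48, 36 to 51, 32 to 46 and 32 to 47 members with a peak in A2780 control, A2780 cisplatin, Acis control and Acis cisplatin.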

Other observations

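Rows of the count table that carry an identifier but no gene name were outside the naming rule. Among them, 5 are named as microRNA hosts by GENCODE release 44. Over the 12 libraries they held 79 counts for MIR365BHG, 787 counts for MIR130AHG, 863 counts for MIRLET7IHG, 221 counts for MIR3677HG and 78 counts for MIR4733HG.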
